A study of Mus musculus with 20 samples.

Results

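Tubulin genes encode the alpha and beta subunits of microtubules. The 10 genes described here were picked by symbol as alpha- and beta-tubulin genes with earlier results of these data known, by a list that sets no threshold on a measured value, and are *Tuba1a*, *Tuba1b*, *Tuba1c*, *Tubb2a*, *Tubb2b*, *Tubb3*, *Tubb4a*, *Tubb4b*, *Tubb5* and *Tubb6*. All 10 were among the 14924 genes with RNA-Seq and POL-Seq counts, 8 were among the 9621 genes with 3′ end counts, and 2 were among the 1435 genes with a HuD binding window. Of the 14924 counted genes, 8.93% had such a window when each window was given to 1 gene. HuD (ELAVL4) is a neuronal RNA-binding protein that recognizes U-rich stretches of mRNA.

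The cells were NSC-34, a mouse hybrid line with motor neuron features, engineered for inducible expression of tagged human HuD. CRAC, which maps crosslinked sites of a tagged protein on RNA, comprised 3 libraries from Trex-HuD cells and 3 from control Trex cells without the transgene. Both were given tetracycline at 10 µg/ml for 24 h according to the labels. The paper's methods for CRAC also name this treatment, whereas its results give doxycycline at 2 µg/ml for 48 h. RNA-Seq of total RNA and POL-Seq of polysomal RNA comprised 2 libraries each from control cells and from HuD cells, and 3′ end sequencing comprised 3 and 3. The HuD cells were given inducer at 2 µg/ml for 48 h. For its inducible cell lines the paper names doxycycline at 2 µg/ml. The labels state no treatment of the control cells in these assays and do not say how many clones the HuD cells came from, so any effect of the inducer or of clone cannot be told apart from that of HuD.

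Microtubules are built from heterodimers of an alpha- and a beta-tubulin, and vertebrates carry several genes for each. *Tuba1a*, *Tubb2b* and *Tubb3* are best known from developing neurons, whereas *Tuba1b*, *Tuba1c*, *Tubb4b*, *Tubb5* and *Tubb6* are more widely expressed. Cells adjust the amount of tubulin in part by degrading tubulin mRNAs on ribosomes when free subunits are in excess, a process in which Ttc5 recognizes the nascent chain.

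Libraries held 21296012 to 36284728 counted reads in RNA-Seq and POL-Seq and 12986862 to 15751036 in 3′ end sequencing. *Elavl4*, the mouse gene for HuD, read 78.5 and 95.1 counts per 1000000 (CPM) in total RNA of control cells and 240 and 211 CPM in that of HuD cells, a log2 change of 1.35 ± 0.147 (SE) that missed the threshold in edgeR (adjusted p = 0.0866) and passed it in DESeq2 (adjusted p = 3.73e-16). Its 3′ ends were not higher. They read 81.6, 37.0 and 78.1 CPM in control cells and 56.6, 30.9 and 51.0 CPM in HuD cells, lower in the fit with same-numbered libraries as a block (adjusted p = 0.0306) and not without it (0.922). The paper describes the transgene as a cloned human HuD cDNA, and the part of transgene reads in the mouse *Elavl4* counts of either assay was not tested. Of 17 neuron and motor neuron markers 12 reached 1 CPM in every library, and *Slc5a7* and *Mnx1* were not among the genes counted. None of the 4 microglia markers was counted, and the 4 astrocyte, 4 oligodendrocyte and 4 fibroblast markers summed to at most 37.8, 19.3 and 28.8 CPM. The 3 muscle markers summed to 60.3 to 76.4 CPM, with *Myh3* above 1 CPM in every library and *Myog* not among the genes counted, and the part of such cells or transcripts in the results was not tested.

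HuD binding windows were found on *Tubb5* and *Tubb3*. The CRAC values are pooled by the authors over 3 libraries, so they carry no replicate error and were not tested. The letters of the *Tubb5* cluster are shown first because they hold most of its signal. Capitals mark the listed windows, each written 5′ to 3′ on the RNA strand (GENCODE vM21, GRCm38).
Tubb5 3′ UTR cluster, chr17:35834859-35834888, minus strand: uguauuUGUUUUGuUCUGUUUUCucauugg
Tubb5 5′ UTR window: ucaaaaacaauUAUUUCAguaaaccguagc
Tubb5 3′ UTR, second stretch: aggcacucaauAAAUAUUUguuuguggaau
Tubb5 3′ UTR, last stretch: guguuguaccuGCUUUUUuuuuuuuuuuca
Tubb3 3′ UTR window: cacugcccccaGCUUUGCuucucaccagcu

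*Tubb5* lies on the minus strand of chromosome 17, from 35833921 to 35838306 of GRCm38. It had 6 windows with 2248 covering reads and 61 reads with a deletion, the trace that a crosslinked base leaves, and no read in control cells. The authors penalized positions with control reads before listing windows, so the selection favours windows without such reads. By summed coverage it ranked 12 of 1299 protein coding genes, against a median of 27 reads per gene. Adjoining windows share reads. After merging those that overlap or adjoin, *Tubb5* had 5 sites, 1623 reads and rank 15. The window UGUUUUG stayed a site of its own beside the merged pair, so reads spanning both may still be counted more than once.

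The 3′ UTR cluster held 3 of the 6 windows within 17 nt, starting 100 nt after the stop codon. UGUUUUC, at 35834866 to 35834872, had 631 reads and 35 deletions with the authors' unadjusted p-value at 0.00164. It ranked 24 of 2364 windows in 3′ UTRs by coverage, where the median was 25.5 reads. UCUGUUUU, which starts 2 nt upstream and overlaps it, had 625 reads and 3 deletions. UGUUUUG, at 35834876 to 35834882, had 534 reads and 3 deletions. Coverage was therefore alike across the cluster, while deletions were found mainly at its downstream end. Among the 28 listed windows with the sequence UGUUUUC, on 27 genes, that of *Tubb5* had the highest coverage, and their median was 19 reads.

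The 5′ UTR of *Tubb5* also held a window. UAUUUCA, at 35838067 to 35838073, ends 13 nt before the start codon and had 353 reads and 9 deletions with an authors' p-value at 0.012. Windows in a 5′ UTR were listed on 21 protein coding genes, and on 14 genes together with windows in the 3′ UTR. By coverage that of *Tubb5* ranked 19 of 71 such windows, whose median was 68 reads.

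The other 2 windows of *Tubb5* were weak. AAAUAUUU, 160 nt after the stop codon at 35834815 to 35834822, had 54 reads and 3 deletions. Its first bases complete an AAUAAA hexamer, the usual signal for cleavage and polyadenylation, that starts 157 nt after the stop codon. GCUUUUU, 990 nt after the stop codon and 65 nt from the transcript end, had 51 reads and 8 deletions.

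*Tubb3*, the beta-tubulin used as a neuronal marker, had a single window. GCUUUGC, on the plus strand of chromosome 8 at 123421782 to 123421788, lies 100 nt after the stop codon and had 19 reads, 3 deletions and an authors' p-value of 0.307. It was at the table's minimum of 3 deletions, and *Tubb3* ranked 769 of 1299 genes. Relative to the mRNA level the 2 genes also differed. *Tubb5* had 6.12 summed covering reads per FPKM (rank 214 of 1238) and *Tubb3* 0.0599 (rank 1227), against a median of 1.56. By the reads of the highest window alone, the values were 1.72 (rank 470 of 1238) and 0.0599 (rank 1224). FPKM is the count per kilobase of exon, scaled to the library total as CPM is, here in total RNA of control cells.

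**Figure D1:**
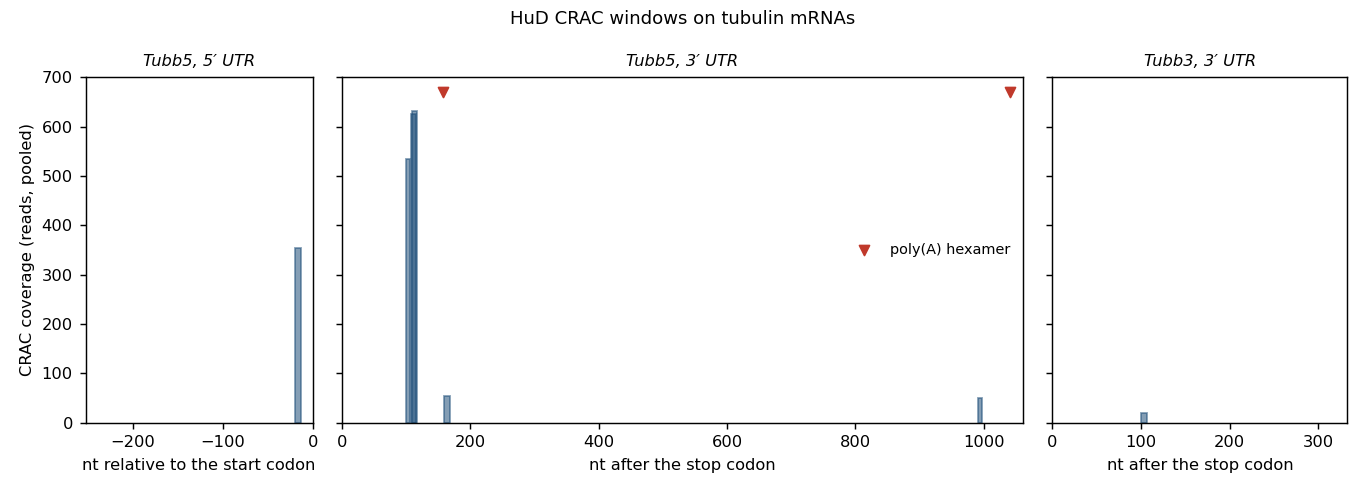
CRAC coverage (reads pooled over 3 libraries, vertical axis) of each window against its distance in nt from the start or stop codon on *Tubb5* and *Tubb3*, with the axes spanning each UTR and triangles at AAUAAA hexamers. The cluster that starts 100 nt after the *Tubb5* stop codon reaches 631 reads and the *Tubb3* window 19.

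The other 8 genes had no listed window, although *Tuba1a*, *Tubb4b* and *Tuba1b* were more abundant in total RNA of control cells than 96.5%, 93.4% and 91.7% of the 1238 protein coding genes with windows. The table lists only windows with at least 6 reads, 3 deletions and a score of 0.71, so lighter contacts would not appear. The authors also penalized positions with reads in control cells, and the part of that step in the missing windows was not tested. Of the 50-nt stretches of the 3′ UTR, 74.1% in *Tuba1b* and 72.7% in *Tubb4b* also occurred in transcripts of other genes, against 0% in *Tuba1a*, and the part of this sharing in the missing windows was not tested. The 3′ UTR of *Tubb5* is the longest of the 10, at 1061 nt, and 7 others are 101 to 373 nt long. *Tubb2b* and *Tubb4a*, with 723 and 624 nt, had no window. Of the 10 genes, *Tubb5* was alone in holding UGUUUUC in the 3′ UTR of its longest transcript, on the sense strand. The sequence was taken from its own top window, so its presence there was given. Of all 20924 such 3′ UTRs 25.1% hold it, and of those of 1238 genes with windows 42.9%. The 3′ UTRs of genes with windows are also longer, with a median of 1772.5 nt against 942 nt over all genes. Cores of a base other than U followed by UUU were not particular to *Tubb5*. They occurred 2.92 times per 100 nt there, 3.73 in *Tubb2b*, 3.05 in *Tuba1a* and 1.28 in *Tubb4a*, with a median of 2.13 over all genes and 2.87 over genes with windows.

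*Tubb5*, *Tubb3* and *Tuba1a* were the most abundant tubulin mRNAs in RNA-Seq and POL-Seq. *Tubb5* read 333 and 402 FPKM in total RNA of control cells, 350 and 369 in total RNA of HuD cells, 354 and 428 in polysomal RNA of control cells and 373 and 396 in polysomal RNA of HuD cells. Control and HuD libraries overlapped in both fractions. Polysomal and total RNA overlapped in control cells, whereas in HuD cells both polysomal values were above both total values, which was not so with TMM scaling. *Tubb3* ranged from 299 to 369 FPKM over the 8 libraries with a median of 320, and *Tuba1a* from 264 to 325 with a median of 308. *Tubb5* exceeded *Tubb3* in each of the 8 libraries although their ranges overlapped, and *Tubb3* exceeded *Tuba1a* in 5, so that order is not set. *Tubb4b* followed with 175 to 206 FPKM and *Tuba1b* with 103 to 165.

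The remaining 5 genes were lower. *Tubb6* ranged from 44.5 to 53.2 FPKM. *Tubb2a* (28.4 to 35.0), *Tuba1c* (25.1 to 33.6) and *Tubb2b* (20.7 to 27.5) overlapped with their neighbours in this order, and *Tubb4a* was lowest at 9.12 to 10.4. With the length of the longest transcript in place of all exons, *Tuba1c* came before *Tubb2a* and the other places were unchanged. *Tubb5* supplied 24.3% to 28.5% of the summed FPKM of the 10 genes, and the 3 alpha genes together 29.4% to 34.3%.

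**Figure D2:**
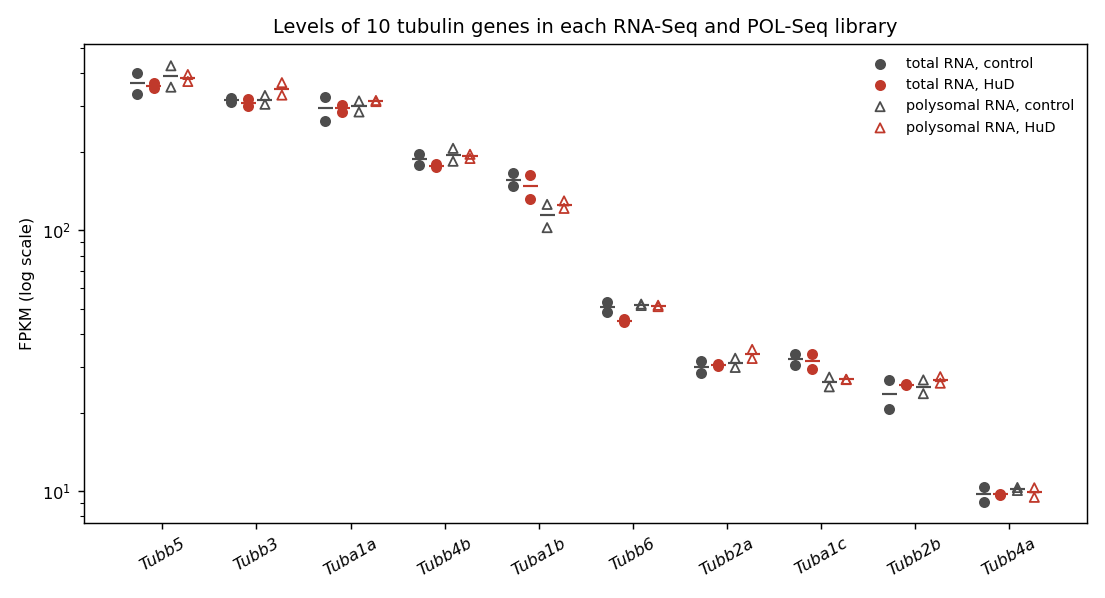
FPKM (log scale) of each tubulin gene in the 8 RNA-Seq and POL-Seq libraries, with points for libraries and short lines for the mean of 2. *Tubb5*, *Tubb3* and *Tuba1a* sit at 264 or higher, *Tubb4a* near 10, and *Tuba1b* and *Tuba1c* have lower points in polysomal than in total RNA.

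These levels rest on reads that can be told apart. The authors counted with STAR, which counts reads aligned to a single place. Of all 50-nt stretches of the longest transcript, 83.1% in *Tuba1b*, 75.5% in *Tuba1a* and 61.0% in *Tuba1c* also occurred in a transcript of another gene, mostly each other and pseudogenes. The shares were 55.5% in *Tubb4b*, 49.6% in *Tubb2a* and 39.3% in *Tubb2b*, but 0.115% in *Tubb5*, 0.184% in *Tubb4a* and none in *Tubb3* and *Tubb6*. In GENCODE vM21, exons of *Tuba1a* and *Tuba1b* overlap those of *Gm49450* on the same strand by 473 and 426 nt. On the opposite strand, *Tuba1b* overlaps *Gm41396* by 87 nt and *Tubb4b* overlaps *Fam166a* by 121 nt. The authors counted with Gencode M6, and the presence of these overlaps there was not checked. The FPKM of the genes with high shares are therefore uncertain, and the effect of the shared stretches on the counts was not tested.

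The next question was how these mRNAs are distributed between polysomes and total RNA. *Tuba1b* and *Tuba1c* were the only members lower in polysomal RNA in both kinds of cells in each same-numbered pair, and the other 8 had log2 ratios from −0.08 to 0.19. None of the 10 passed the test. In the edgeR quasi-likelihood test at an adjusted p under 0.05, 0 of 10 genes were called in either direction in control cells, against 0.174% of 14906 genes lower and 0% higher, and 0 of 10 in HuD cells, against 0.49% lower and 0.047% higher. DESeq2 called none of the 10 either.

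*Tuba1b* read 278 and 310 CPM in total RNA of control cells and 236 and 192 CPM in their polysomal RNA. The groups did not overlap. Its polysome-to-total ratio was −0.46 ± 0.134 (log2, SE), a fold of 0.726 with a 95% interval of 0.589 to 0.895 (adjusted p = 0.416, edgeR). In HuD cells it read 248 and 307 CPM in total and 228 and 243 CPM in polysomal RNA, a log2 ratio of −0.25 ± 0.134 (adjusted p = 0.516, edgeR). The ratio in same-numbered pairs was −0.24 and −0.69 in control cells and −0.14 and −0.34 in HuD cells. Without the first polysomal control library *Tuba1b* passed the test, at −0.59 with an adjusted p of 0.0247 in edgeR, in a fit in which 7.7% of all genes were called lower and the lone polysomal control library was assumed to vary like the other groups. Without the second it was −0.35 (adjusted p = 0.898, edgeR). In HuD cells the ratio was −0.40 without the first total library (adjusted p = 0.55, edgeR) and −0.07 without the second (adjusted p = 0.936, edgeR).

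*Tuba1c* read 69.8 and 76.9 CPM in total and 62.6 and 57.5 CPM in polysomal RNA of control cells, and 67.4 and 76.8 against 61.3 and 61.5 CPM in HuD cells. Again the groups did not overlap in either kind of cell. The log2 ratio was −0.29 ± 0.0989 in control cells (adjusted p = 0.462, edgeR) and −0.25 ± 0.0985 in HuD cells (adjusted p = 0.351, edgeR). In HuD cells it was −0.14 without the second total library (adjusted p = 0.818, edgeR). An unadjusted p under 0.05 with a lower value was reached by 2 of 10 genes in control cells, where 6.25% of all genes did, and by 1 of 10 in HuD cells, where 7.59% did. With same-numbered libraries as a block, 1 gene in HuD cells was under it with a lower value (*Tuba1c*, adjusted p = 0.151, edgeR) and 1 with a higher value (*Tubb6*, log2 ratio 0.17, adjusted p = 0.183, edgeR), where 10.7% and 9.2% of all genes were. *Tuba1b* and *Tuba1c* are genes in which most 50-nt stretches are shared, and the part of this sharing in the ratios was not tested. *Tuba1a*, which also shares most of its stretches, had ratios of 0.11 and −0.05 in control cells and 0.12 and 0.04 in HuD cells.

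The main HuD-bound member, *Tubb5*, had even ratios. They were 0.09 and 0.09 in control cells and 0.07 and 0.09 in HuD cells (log2), with fitted values of 0.09 ± 0.14 (adjusted p = 0.808) and 0.08 ± 0.14 (adjusted p = 0.873) in edgeR. *Tubb3* had 0.07 and −0.08 in control cells and 0.19 and 0.13 in HuD cells. In HuD cells 6 of 10 genes were higher in both polysomal libraries than in both total libraries, where 25.3% of all genes were, and 2 of 10 were lower, where 24.5% were. In control cells the counts were 0 and 2, against 18.9% and 20.1%. The median log2 ratio over the 10 genes was 0.04 in control and 0.08 in HuD cells, and over all genes 0.01 in both.

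**Figure D3:**
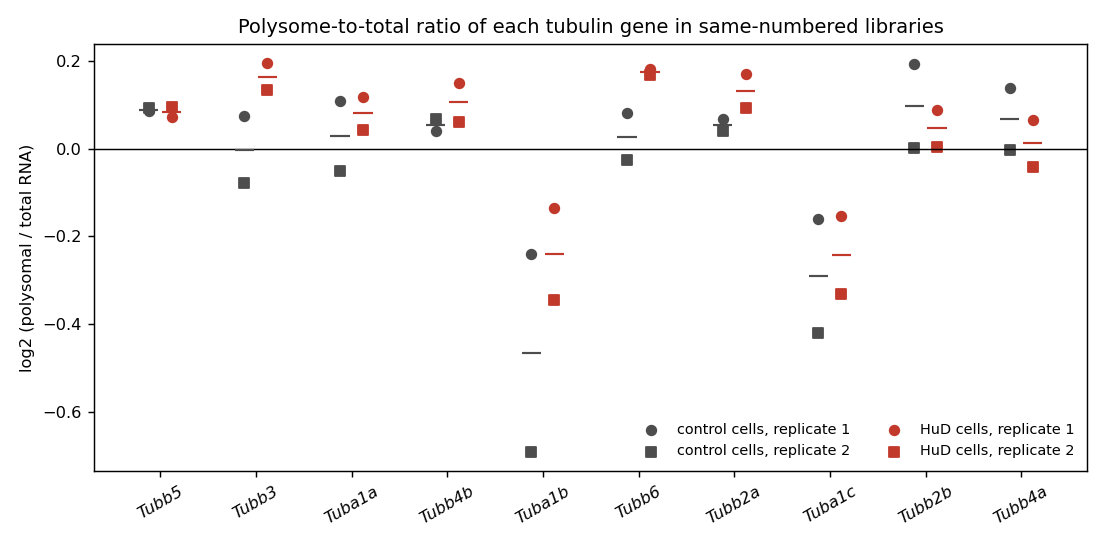
Log2 ratio of polysomal to total RNA of each tubulin gene in same-numbered libraries (circles and squares) of control and HuD cells, with short lines for the mean of 2. *Tuba1b* and *Tuba1c* lie below 0 in 4 of 4 pairs, from −0.14 down to −0.69, and *Tubb5* stays at 0.07 to 0.09.

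Induction of HuD was then compared with control. No tubulin gene passed the test. In total RNA 0 of 10 genes were called by edgeR, as were 0% of 14906 genes. The log2 changes ran from −0.20 to 0.09, and 9 of 10 were below 0 with a median of −0.05 (all genes −0.00). Over all genes 7649 of 14906 were below 0. With same-numbered libraries as a block 8 of 10 tubulin genes were, and *Tubb2a* was near 0 in both fits (−0.001 and 0.0002). The counts below 0 were 5 of 10 in polysomal RNA and 4 of 8 in 3′ ends. In total RNA an unadjusted p under 0.05 was reached by 1 of 10 genes in edgeR, lower, against 0.865% of all genes. In bulk RNA, fewer cells expressing a gene and less RNA per cell cannot be told apart. The gene was *Tubb6*, with 118 and 130 CPM in control and 108 and 111 CPM in HuD cells (log2 change −0.20 ± 0.0863, adjusted p = 1.0, edgeR), and without the second control library the change was −0.11. Its groups did not overlap, as in 16.7% of all genes for a lower value. In polysomal RNA *Tubb6* read 126 and 127 CPM in control and 124 and 126 CPM in HuD cells.

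The 2 genes with HuD windows are given with their intervals. For *Tubb5* the log2 change was −0.06 in total RNA, with a 95% interval of −0.37 to 0.26, and −0.06 in polysomal RNA, with −0.38 to 0.25. Its change in the polysome-to-total ratio, the measure of translation efficiency in the study, was −0.01 (−0.45 to 0.44). For *Tubb3* the values were −0.06 (−0.27 to 0.14) in total RNA, 0.11 (−0.10 to 0.31) in polysomal RNA and 0.17 (−0.12 to 0.46) for the ratio. *Tubb3* read 615 and 569 CPM in polysomal RNA of control cells and 689 and 617 CPM in that of HuD cells, without overlap, as in 14.1% of all genes for a higher value.

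Over the 10 genes, 0 were called in polysomal RNA and 0 for the ratio in edgeR, as were 0% of all genes in both. None of the 10 had an unadjusted p under 0.05 in either, where 4.17% and 0.979% of all genes did, and DESeq2 called none of the 10. The change in ratio ran from −0.05 in *Tubb4a* to 0.21 in *Tuba1b*. *Tubb2a*, *Tubb3* and *Tubb6* had higher ratios in both pairs of HuD cells than in both pairs of control cells, 3 of 10 genes, where 18.6% of all genes did.

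**Figure D4:**
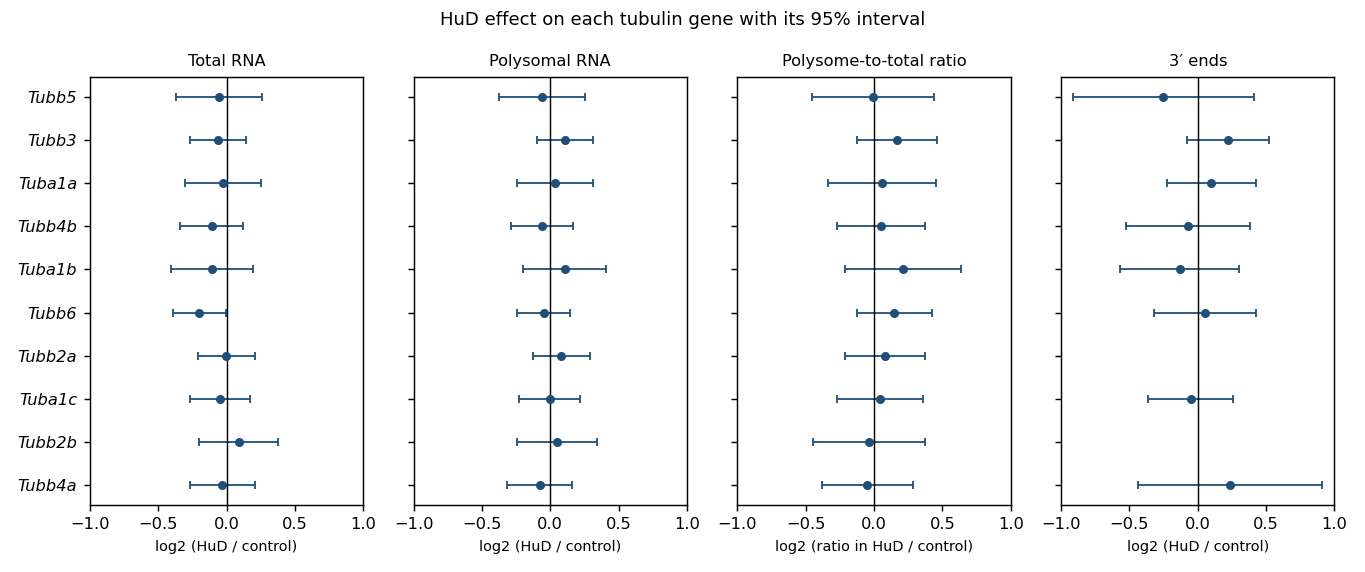
Log2 change on HuD induction of each tubulin gene in total RNA, polysomal RNA, the polysome-to-total ratio and 3′ ends (8 genes), with bars for the 95% interval of the edgeR fit. All intervals include 0 except that of *Tubb6* in total RNA (−0.20), which did not pass after adjustment.

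Sequencing of 3′ ends counted reads at annotated polyadenylation sites. *Tubb2a* and *Tubb2b* were not analysed in it. Each of the other 8 genes had a single counted end, so the use of alternative ends could not be compared for any of them. The order of the genes was not that of RNA-Seq. *Tuba1b* was highest, with 4519, 6432 and 5287 CPM in control cells and 4105, 5933 and 4743 CPM in HuD cells, and *Tuba1a* followed with 2494 to 3392 CPM. *Tuba1b* exceeded *Tuba1a* in 6 of 6 libraries, by 1.21 to 1.93 times, whereas its FPKM was 0.327 to 0.562 of that of *Tuba1a* in the 8 RNA-Seq and POL-Seq libraries. In the last 100 nt, where these reads start, 74.5% of 50-nt stretches of *Tuba1b* and 100% of those of *Tubb4b* occurred in other genes, and none of *Tuba1a*, *Tuba1c*, *Tubb3* and *Tubb5*.

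*Tubb5*, first in RNA-Seq, was seventh of 8 in 3′ ends. It read 12.1, 15.0 and 11.2 CPM in control cells and 8.47, 15.9 and 7.63 CPM in HuD cells. Its 3′ end CPM per FPKM was 0.0348, which ranked 9028 of 9069 genes and was 64.8 times below the median of 2.25. The counted end, at 35833921, is that of the full 3′ UTR, after the AAUAAA that starts 1041 nt after the stop codon. No end after the hexamer at 157 nt was among those counted, so the level of transcripts that might end there was not analysed here. For comparison the 3′ end CPM per FPKM was 34.5 in *Tuba1b*, 9.85 in *Tuba1a*, 3.81 in *Tubb3*, 0.494 in *Tubb6* and 0.237 in *Tubb4a*. AAUAAA was found in the last 40 nt of 6 of the 8 genes, and in 67.5% of 16417 lines of the 3′ end table with the same end in vM21. The exceptions were *Tuba1b* and *Tubb4b*.

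**Figure D5:**
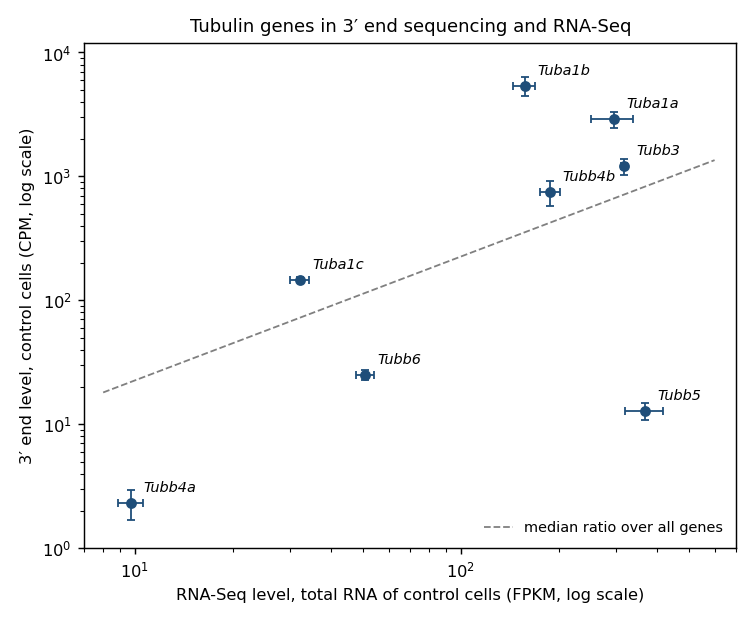
Mean 3′ end level (CPM, n = 3) against mean RNA-Seq level (FPKM, n = 2) of 8 tubulin genes in control cells on log scales, with SD bars and a dashed line at the median ratio over all genes. *Tubb5* lies 64.8 times below the line, and *Tuba1b* is the farthest above it.

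No tubulin gene passed the test in 3′ end counts on HuD induction. In edgeR 0 of 8 genes were called, against 0.0208% of 9621 genes higher and 0.0312% lower, and none of the 8 reached an unadjusted p under 0.05, where 5.87% of all genes did. *Tubb3* read 1300, 1320 and 1005 CPM in control cells and 1450, 1399 and 1364 CPM in HuD cells. The groups did not overlap, as in 6.23% of all genes for a higher value, and the log2 change was 0.22 ± 0.131 (adjusted p = 0.92, edgeR), or 0.11 without the third control library. With same-numbered libraries as a block, 1 of 8 genes was under an unadjusted p of 0.05, where 18.7% of all genes were. It was *Tubb3*, with a log2 change of 0.23 (adjusted p = 0.163, edgeR). Its log2 differences in the 3 pairs were 0.17, 0.05 and 0.48. The differences also had 1 sign in 3 of 3 pairs in *Tubb4a* (0.17, 0.32 and 0.22), *Tuba1b* (−0.13, −0.15 and −0.12) and *Tuba1c* (−0.14, −0.01 and −0.02). In *Tuba1a*, *Tubb4b*, *Tubb5* and *Tubb6* the sign differed between pairs. The share of all genes with 1 sign in 3 pairs was not determined, so these signs are a description. *Tubb5* had a log2 change of −0.25 with a 95% interval of −0.92 to 0.41. *Tubb4a* rests on few reads, at 1.65 to 3.23 CPM.

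Genes that act on tubulin were compared in the same way. Windows were listed for 6 of 22 genes of tubulin folding (prefoldin, the chaperonin CCT, the tubulin cofactors and *Ttc5*), 1 of 8 of the gamma-tubulin ring complex, 0 of 19 that modify tubulin and 0 of 10 other tubulins, against 8.93% of the 14924 counted genes. *Tbca*, a cofactor that binds beta-tubulin, had 5 windows with 726 reads (rank 44), and *Vbp1*, a prefoldin subunit, had 4 windows with 238 reads (rank 123). *Mzt1*, of the ring complex, had 1 window with 27 reads.

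In the fit without a block no gene of these lists was called in any comparison. *Vbp1* read 185 and 213 CPM in total and 291 and 287 CPM in polysomal RNA of HuD cells, a log2 ratio of 0.53 ± 0.114 that missed the threshold in edgeR (adjusted p = 0.0985) and passed it with same-numbered libraries as a block (adjusted p = 0.0122) and in DESeq2 (adjusted p = 0.00357). It was the only one of 22 folding genes called with the block, where 1.01% of all genes were called higher. *Tbca* had a log2 ratio of 0.05 there. *Vbp1* was also higher in polysomal RNA of control cells, with 204 and 222 CPM in total and 248 and 287 CPM in polysomal RNA. That log2 ratio was 0.33 ± 0.114 (adjusted p = 0.462, edgeR). The change in the ratio of *Vbp1* on HuD induction was 0.20 ± 0.161 (unadjusted p = 0.25, edgeR) and was not called. *Ttc5* read 33.1 and 31.2 CPM in total RNA of control cells and 35.1 and 31.1 CPM in HuD cells (log2 change 0.02 ± 0.0925, adjusted p = 1.0, edgeR). Its polysomal RNA changed by −0.10 ± 0.0928 (adjusted p = 0.969, edgeR). Its 3′ ends rest on few reads, at 1.65, 1.19 and 1.14 CPM in control and 1.00, 0.743 and 0.647 CPM in HuD cells. They changed by −0.73 ± 0.305 (unadjusted p = 0.0396, adjusted p = 0.836, edgeR), without overlap, as in 5.81% of all genes for a lower value. The 5 other tubulins that were counted, *Tuba8*, *Tubd1*, *Tube1*, *Tubg1* and *Tubg2*, had log2 changes of −0.15 to 0.07 in total RNA and none was called.

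Among the 5 genes whose log2 CPM was most like the mean of the 10 tubulin genes over the 8 libraries were *Acy1* (Pearson r = 0.954), *Lysmd3* (0.905), *Nek6* (0.903) and *Upf1* (0.898), out of 9644 genes with a mean of at least 10 CPM. All of these correlations share the libraries and their depth and are a description.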

How the data were processed

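RNA-Seq, POL-Seq, 3′ end sequencing and CRAC of NSC-34 cells were analysed. The authors deposited raw counts per gene (STAR 2.5.3a, GRCm38.p4, Gencode M6, TruSeq Stranded mRNA) and raw counts of QuantSeq REV reads within a few nt of known polyadenylation sites, per transcript. For CRAC (Tophat 2.0.14) the authors deposited coverage, as a signal in reads, and deletion counts, both pooled over replicates, with a combined unadjusted p-value and a motif score per window. Repeated lines were reduced to unique windows. Listed positions were moved 1 nt (plus strand) or 2 nt (minus strand) downstream, where 7 of 7 tubulin windows held the listed sequence.

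CPM and FPKM (union of exons, GENCODE vM21) used library totals. Group changes and polysome ratios used TMM. Counts were tested over all genes in R 4.3.3 with edgeR 4.0.16 (TMM, filterByExpr, quasi-likelihood test, all 8 or all 6 libraries, Benjamini-Hochberg adjusted p under 0.05), which kept 14906 and 9621 genes, and with DESeq2 1.42.0 as an alternative. The change in polysome ratio is the interaction of fraction and HuD. SE and 95% intervals come from the edgeR fit. The paper describes RNA-Seq and POL-Seq as done in biological duplicate and 3′ end sequencing in biological triplicate. The labels name no cultures, so which libraries came from the same culture is unknown, and p-values measure the spread between these libraries. Same-numbered libraries deviated together (correlations 0.188 to 0.387 over 14906 genes, and 0.400, 0.657 and 0.515 for 3′ ends), and the fit was repeated with the replicate block. Alternatives also changed the scaling, filter, samples in the fit, definition of ends and windows, and gene length, and left out each library. The fits were tested on simulated counts.

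All 10 members are named, with Elavl4, Ttc5, the other counted tubulins, the folding and ring complex genes with the most CRAC coverage, and the 5 genes most like the members (log2 of CPM plus 0.5), of which 1 is not reported here. Among the members, changes are given singly for those with windows and for those under an unadjusted p of 0.05, and for some others. For the genes of the other lists only part of the changes is given, also where an unadjusted p was under 0.05. Members and lists were chosen with earlier results of these data known. Python 3.11.15, pandas 2.3.3 and matplotlib 3.10.9 were used. The total depth of the CRAC libraries is unknown.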

Additional observations from a re-analysis of the deposited data

How the results depend on the processing

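With 2 or 3 libraries per group, changes smaller than the 95% intervals given for each gene could not be seen. No tubulin gene was called under another scaling, filter or test, or in fits of only the groups compared. Of 728 refits of 58 changes, 1 gave a call, *Tuba1b* in control cells without polysomal control library 1, so leaving out a library gave 0 to 1 called. Leaving it out also gave the highest all-gene counts for this ratio, for polysomal RNA and for the change in ratio, and the cause was not tested. The sign turned in at least 1 refit for 34 of the 58, all with a size of at most 0.134 (log2), and for 3 without leaving out a library. No paired or unpaired test of end usage was run, because each gene had 1 end.

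The polysome ratio of *Tubb3* in control cells (−0.0026) was 0.0045 with DESeq2 size factors and 0.0045 in DESeq2, and −0.044 to 0.041 without single libraries. That of *Tubb5* ran from −0.083 to 0.25. The change of *Tubb5* ran from −0.20 to 0.11 in total and −0.21 to 0.11 in polysomal RNA, and its change in ratio from −0.17 to 0.16, that of *Tuba1c* from −0.055 to 0.15.

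Counts over all genes moved more. For the polysome ratio in control cells (0 higher, 26 lower), the replicate block gave 41 lower, DESeq2 2 and 65, the 2 groups alone 0 lower, and single libraries left out 0 to 996 higher and 0 to 1149 lower. For HuD cells (7 and 73), the replicate block gave 150 and 266, DESeq2 65 and 174, the 2 groups alone 114 and 239, and left-out libraries 0 to 125 and 0 to 286. For HuD against control, DESeq2 and the 2 groups alone gave 1 higher in total RNA and left-out libraries 0 to 1. In polysomal RNA DESeq2 gave 3, and left-out libraries 0 to 255 higher and 0 to 117 lower. For the change in ratio they gave 0 to 47 higher. For 3′ ends (2 and 3), the replicate block gave 100 and 117, DESeq2 10 and 25, merged ends 1 higher, and left-out libraries 0 to 6 and 2 to 8. The block changed no tubulin call.

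Merging windows lowered the coverage of *Tubb5* from 2248 to 1623 reads, since overlapping windows share reads. Nearby windows that did not touch stayed apart, so some reads may still be counted more than once. Windows with a combined p under 0.05 held 2143 and left *Tubb3* with 0. With the longest transcript, FPKM in control cells became 37.0 for *Tuba1c*, 245.6 for *Tubb4b*, 461.5 for *Tubb5* and 70.5 for *Tubb6*.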
